A study of Mus musculus with 24 samples.

Results

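The genes described here lie on mouse chromosome 5 within 15 Mb of the start of Actl6b, the gene that is altered in the study's mutant mice. They were taken from the deposited expression table by position and by a mean of at least 1 RPKM (reads per unit of gene length and library depth) over all 24 libraries, which left 257 of the 19661 genes listed and of the 12399 with a mean that high. Of 371 entries in the window, 100 had a lower mean, and 14 were left out by name, among them Actl6b itself, whose genotype difference follows from the design. Members were thus chosen by position and by mean RPKM over all libraries, not by a difference between groups, and the window was drawn around Actl6b with earlier genotype results of these data in view. The mean RPKM just inside the limit was 1.02 for Lat2, 1.10 for Gpr30 and 1.14 for Gal3st4. Just outside it were Tmem132c at 0.874, Mlxipl at 0.856 and Rasa4 at 0.835. No gene passed only through 1 genotype, since 0 of the 257 had a mean under 1 RPKM in wild type or in heterozygous animals.

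RNA was sequenced from the dorsal hippocampus, both sides together, of 24 mice in 4 groups of 6, with 1 library for each numbered animal. Wild-type mice were of strain C57BL/6J. Mice called Baf53b+/- carried 1 targeted copy of Actl6b and were labelled B6J.129S6-Actl6b<tm1Grc>. In each genotype 6 mice were home cage controls, and the other 6 were killed 30 minutes after Object Location Memory training, in which a mouse learns where objects stand in an arena. The allele is present in every cell of a heterozygote, the labels give no ages, and home cage animals are the only untrained controls. A second strain name stands in the label of the heterozygotes alone, so strain background and the dose of Actl6b cannot be told apart in any genotype comparison below.

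Actl6b encodes BAF53b, an actin-related subunit of the neuronal BAF complex, which uses ATP to move nucleosomes. When a targeted allele is carried into another strain by backcrossing, chromosome of the donor strain that lies close to the allele tends to be inherited with it, and such neighbours are therefore examined by distance. Beside Actl6b lie genes of many kinds, such as Gnb2, a G protein subunit, the block that is deleted in Williams syndrome in people, a cluster of zinc finger genes, and the very abundant transcripts of Actb and Ywhag.

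The promoters of A430033K04Rik and 4933404O12Rik are shown because these were the members whose level differed between genotypes after adjustment. Both are the 250 bases before the start given by RefSeq on GRCm38.p6, in the direction of the gene. In A430033K04Rik (chr5:138622609-138622858, plus strand) the capitals mark CCAAT, found 82 and 52 bases before the start. In 4933404O12Rik (chr5:136918896-136919145, plus strand), which RefSeq lists as a long non-coding RNA, they mark, read on the other strand, ACTACA and TCCC with 2 bases between, 27 bases before the start.
A430033K04Rik: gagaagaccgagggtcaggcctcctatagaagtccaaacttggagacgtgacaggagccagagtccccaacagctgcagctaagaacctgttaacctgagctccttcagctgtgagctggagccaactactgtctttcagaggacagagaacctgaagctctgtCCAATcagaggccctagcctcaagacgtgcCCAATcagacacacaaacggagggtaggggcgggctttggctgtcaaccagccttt
4933404O12Rik: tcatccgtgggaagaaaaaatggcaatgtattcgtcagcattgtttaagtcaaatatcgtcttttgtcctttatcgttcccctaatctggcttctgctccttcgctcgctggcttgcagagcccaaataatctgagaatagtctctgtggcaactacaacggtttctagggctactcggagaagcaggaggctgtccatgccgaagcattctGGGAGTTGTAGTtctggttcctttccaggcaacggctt
Searched on both strands in the same 250 bases of 27025 mouse genes, CCAAT was found in 37.5% and the spaced ACTACA and TCCC in 1.92%. Of the 257 members 197 had a promoter in that table, and 79 of these held CCAAT and 8 the spaced pair. These matches describe the letters of the reference strain and were not tested against expression.

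Depth was recovered from the steps between RPKM values and ran from 28.5 to 47.0 M reads per library with a median of 34.5 M. Neuron markers summed to between 4623 and 5588 RPKM in every library. Choroid plexus markers, 16 genes of the tissue that makes cerebrospinal fluid, summed to between 71.4 and 5472 RPKM. A total of 6 libraries stood apart by these markers, 1 wild-type and 2 heterozygous in the home cage and again 1 and 2 after training. The main genotype counts are given below both without these libraries and with the choroid plexus score (the mean log2 of these markers in a library) as a covariate. Sex read from Ddx3y and Xist was 3 males and 3 females in each group except the heterozygous home cage group, with 5 males and 1 female. In whole tissue, fewer cells of a type and less RNA per cell cannot be told apart.

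Actl6b itself checks the labels of the libraries. In the home cage it was lowest at 49.8, median 51.1 and highest at 53.0 RPKM in wild type, and 28.7, 29.6 and 32.4 RPKM in Baf53b+/-. After training the values were 46.4, 51.1 and 54.4 RPKM in wild type, and 27.3, 27.7 and 31.1 RPKM in Baf53b+/-. The genotypes did not overlap in either condition. Mean levels in heterozygotes were 58.5% and 55.7% of wild type (two-sided exact permutation p = 0.00216 in each condition, the smallest that this design allows).

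Among the 257 neighbours of Actl6b, 2 differed between genotypes once both conditions were averaged: A430033K04Rik was lower and 4933404O12Rik was higher in Baf53b+/-. All differences are Baf53b+/- minus wild type on the log2(RPKM + 0.5) scale, tested with limma in 1 model of the 4 groups and called at a Benjamini-Hochberg adjusted p under 0.05 over all 12399 genes. With Actl6b, these 2 were the 3 genes called of 12399 in that average, a background of 0.0242%, with 0.0161% lower (Actl6b and A430033K04Rik) and 0.00807% higher (4933404O12Rik). Within the home cage 0 members were called and within the trained animals 0, against a background of 0.00807% in each, which is Actl6b alone. At an unadjusted p under 0.05, limma gave 28 members in the home cage (10.9%, against 3.52% of all genes), 26 after training (10.1%, against 3.69%) and 37 in the average (14.4%, against 4.49%). On the rest of chromosome 5 that share was 6.42% in the average, 33 of 514 genes, and 0 were called.

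A430033K04Rik lies 1.07 Mb above Actl6b (mm9 chr5:139064087-139090054). Home cage wild-type animals had 4.47 at the lowest, 4.77 at the median and 5.34 RPKM at the highest, and Baf53b+/- animals had 3.46, 3.90 and 4.62 RPKM. Trained wild-type animals had 4.66, 5.28 and 5.60 RPKM, and trained Baf53b+/- animals 3.82, 4.13 and 4.28 RPKM. Heterozygotes were lower in both conditions, with some overlap in the home cage and none after training. Their mean was 82.9% of wild type in the home cage and 78.1% after training. The log2 difference averaged over conditions was -0.28 (SE 0.04, limma adjusted p = 0.00161). By condition it was -0.25 in the home cage and -0.32 after training, where the limma adjusted p lay just above the threshold of 0.05. After training it was called without home cage wild-type animal 2405, home cage heterozygote 2400, 2401 or 2424, or trained wild-type animal 2421 (limma adjusted p from 0.0168 to 0.0438). Two-sided exact permutation gave p = 0.00433 in the home cage and 0.00216 after training. In the average it stayed called whichever 1 of the 24 libraries was left out. Without the 6 choroid-rich libraries the difference was -0.24 and the limma adjusted p 0.154, and given the choroid plexus score in the model they were -0.28 and 0.00364.

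4933404O12Rik, the non-coding RNA, lies 0.60 Mb below Actl6b (mm9 chr5:137395016-137412979). It was at 3.21, 3.35 and 3.63 RPKM (lowest, median and highest) in home cage wild type and at 3.94, 4.21 and 4.51 RPKM in home cage Baf53b+/-. After training it was at 3.06, 3.5 and 4.07 RPKM in wild type and at 3.73, 4.0 and 4.45 RPKM in Baf53b+/-. Every home cage heterozygote was above every home cage wild-type animal, while the trained groups overlapped. The heterozygous mean was 123% of wild type in the home cage and 114% after training. The average log2 difference was 0.22 (SE 0.04, limma adjusted p = 0.0197), with 0.27 in the home cage and 0.17 after training (two-sided exact permutation p = 0.00216 and 0.0281). The limma call was lost, at adjusted p from 0.0503 to 0.0562, when home cage wild-type animal 2402, 2418 or 2425, home cage heterozygote 2424, or trained wild-type animal 2403 or 2412 was left out. Without the 6 choroid-rich libraries the difference was 0.21 and the limma adjusted p 0.818, and given the choroid plexus score in the model they were 0.22 and 0.0215.

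**Figure D1:**
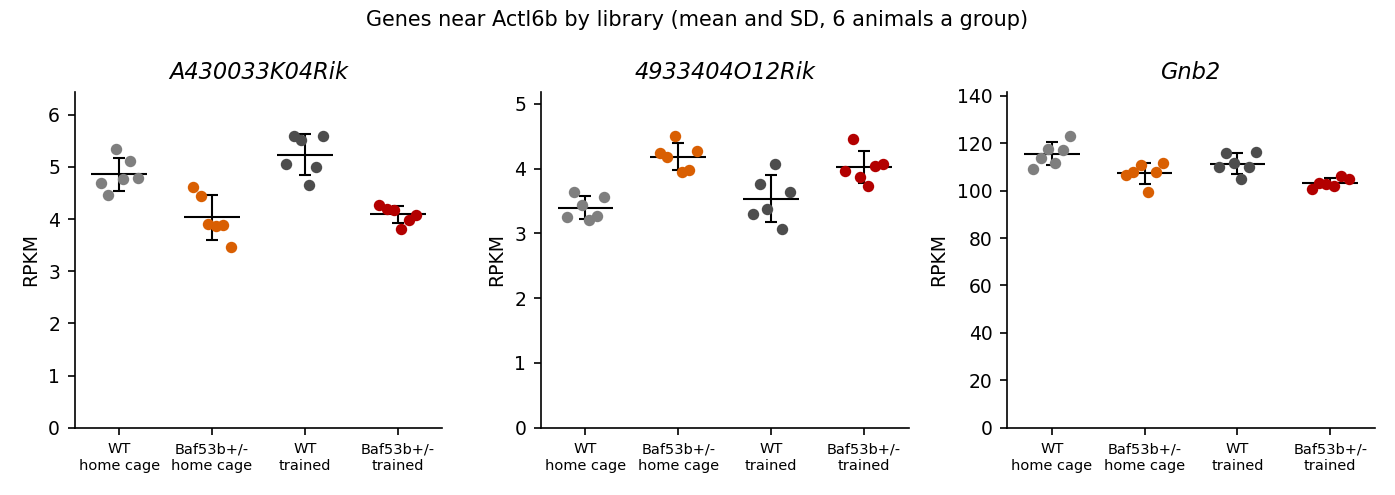
RPKM of A430033K04Rik, 4933404O12Rik and Gnb2 in each of the 24 libraries, by genotype and condition, with the mean and SD of 6 animals. A430033K04Rik was lower in trained Baf53b+/- mice than in every trained wild-type mouse, and 4933404O12Rik was higher in home cage Baf53b+/- mice than in every home cage wild-type mouse.

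None of the 3 nearest members on either side of Actl6b was called. Gnb2, whose product is a beta subunit of heterotrimeric G proteins, starts 25.4 kb below Actl6b and was among the abundant members. In the home cage it was at 109, 116 and 123 RPKM in wild type and at 99.3, 108 and 112 RPKM in Baf53b+/- (lowest, median and highest). After training it was at 105, 111 and 116 RPKM in wild type and 101, 103 and 106 RPKM in Baf53b+/-. Most heterozygotes lay below most wild-type animals, and the groups overlapped in both conditions. The heterozygous mean was 92.9% and 92.7% of wild type, a log2 difference of -0.11 in each condition (SE 0.02 for the average), which did not pass after adjustment (limma adjusted p = 0.296). Exact permutation within conditions gave two-sided p = 0.00866 and 0.00649, not adjusted for the number of genes.

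Gigyf1, which encodes an adaptor that binds Grb10, starts 34.7 kb below Actl6b and had an average log2 difference of 0.08 (limma adjusted p = 0.999). Pop7, a subunit of the RNA-processing enzyme RNase P, had -0.01 at 52.1 kb below. On the other side, Mospd3 at 43.1 kb had an average log2 difference of 0.00. Trfr2, transferrin receptor 2, starts 16.3 kb above Actl6b. Its log2 difference was 0.28 in the home cage and -0.13 after training. The interaction of genotype and training for Trfr2 was -0.41 (unadjusted p = 0.0204, limma adjusted p = 0.985). Pcolce, an enhancer of collagen processing, ranged from 1.30 to 8.94 RPKM among home cage heterozygotes alone, and its average log2 difference of 0.29 had an SE of 0.29.

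None of the next members by p passed in the average. Tmem132d, a transmembrane protein gene 9.73 Mb below Actl6b, was at 1.73, 2.29 and 2.43 RPKM in home cage wild type and at 2.59, 3.4 and 3.95 RPKM in home cage Baf53b+/-, without overlap. After training it was at 2.21, 2.56 and 3.08 RPKM in wild type and at 2.13, 3.29 and 4.47 RPKM in Baf53b+/-, and the trained groups overlapped. Its average log2 difference was 0.37 (SE 0.09, limma adjusted p = 0.419), and without the 6 choroid-rich libraries it was 0.49 and was called (limma adjusted p = 0.0369). Cpsf4, a subunit of the complex that cleaves transcripts before polyadenylation, lies 7.93 Mb above and had 0.21 (limma adjusted p = 0.419). For Mmd2, at 5.04 Mb above, the average log2 difference was -0.09 (limma adjusted p = 0.454). That of Sumf2, a relative of the sulfatase-modifying factor, was 0.14 at 7.67 Mb below (limma adjusted p = 0.501). Cpsf4, Mmd2, Tmem132d and 4933404O12Rik were the 4 members whose genotypes did not overlap in the home cage, where 7 of 12399 genes (0.0565%) showed no overlap. After training A430033K04Rik was the 1 member without overlap, against 28 of 12399 genes (0.226%).

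The home cage and the trained animals are separate mice, so each condition gives the genotype difference once more in other animals. A total of 13 members had an unadjusted p under 0.05 with the same sign in both conditions, 5.06% of the 257, against 31 of 12399 genes, 0.250%. The 31 were made up of the 13 members, Actl6b and 17 of 11615 genes on other chromosomes. On chromosome 5 beyond the window 0 of 514 genes met this standard. Of the other 12 genes tested in the window, left out by name, 0 met it. Among those lower in Baf53b+/- in both conditions were A430033K04Rik, Gnb2, Agfg2, Mmd2, Tmed2, Diablo and A930024E05Rik. Higher in both were 4933404O12Rik, Zcwpw1, Cpsf4, Sumf2 and Tmem132d. Apart from A430033K04Rik and 4933404O12Rik, none of these passed after adjustment in the average. Zcwpw1, Tmed2 and A930024E05Rik were named after their values were seen. Without the 6 choroid-rich libraries, which leaves 4 or 5 animals a group, 6 members met this standard, 2.33%, against 20 of 12399 genes, 0.161%. Given the choroid plexus score in the model, 14 members met it, 5.45%, against 34 of 12399 genes, 0.274%. Leaving out home cage heterozygote 2424 alone left 8 members. Over all members, 54.5% had the same sign in both conditions, against 49.7% of all genes.

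Of these 13, Agfg2 lies nearest to Actl6b after Gnb2, at 97.3 kb above, and encodes a protein of the Arf GTPase-activating family. In the home cage it was at 16.5, 18.2 and 20.3 RPKM in wild type and at 15.3, 16.6 and 17.3 RPKM in Baf53b+/-. After training it was at 16.6, 18.1 and 20.3 RPKM in wild type and at 16.0, 16.9 and 17.1 RPKM in Baf53b+/-. The highest wild-type animals lay above all heterozygotes in both conditions, and the highest heterozygotes overlapped the lowest wild-type animals. The average log2 difference was -0.12 (limma adjusted p = 0.558). Zcwpw1, a reader of methylated histone H3, lies 234.2 kb above Actl6b, and its heterozygous mean was 116% of wild type in the home cage and 119% after training (average log2 difference 0.20, limma adjusted p = 0.816). Across the 257 genes, the home cage and trained differences had a Pearson correlation of 0.523 and a Spearman correlation of 0.245, against 0.0826 and 0.00948 across all 12399 genes. These are descriptions, since genes are not independent replicates and a few members with large differences weigh heavily in the Pearson value.

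**Figure D2:**
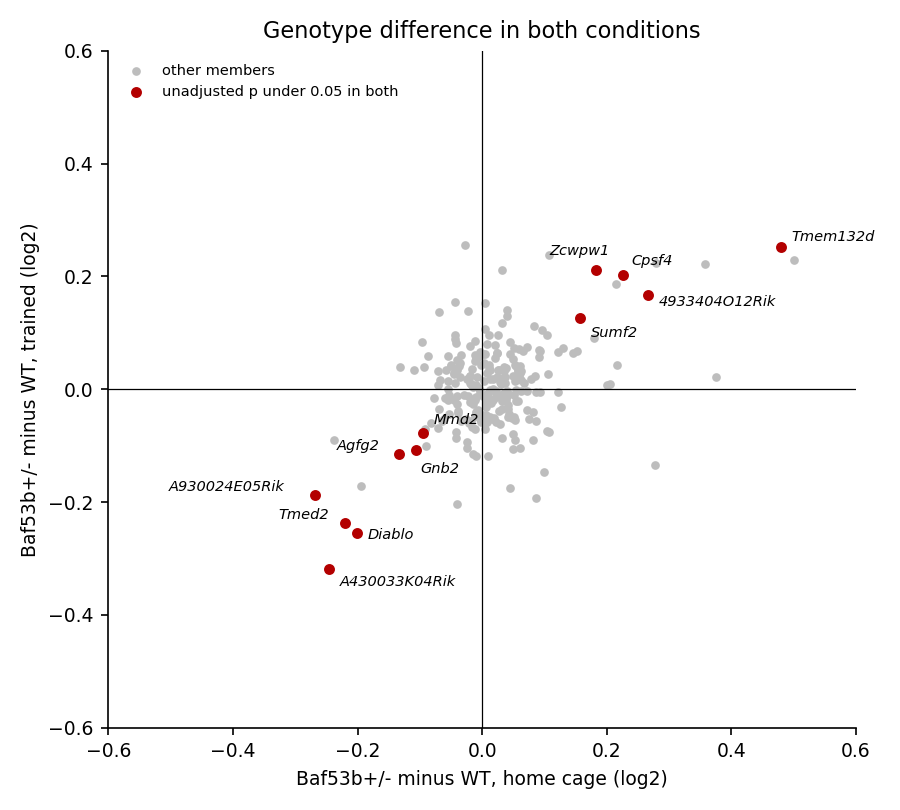
Genotype difference of the members (Baf53b+/- minus wild type, log2(RPKM + 0.5)) in the home cage on the x axis and after training on the y axis. Red points, named, had an unadjusted p under 0.05 with 1 sign in both conditions, 7 of those plotted lower and 5 higher in Baf53b+/-.

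By distance, members with an unadjusted p under 0.05 in the average were on the lower side 5 of 55 within 5 Mb, 4 of 30 between 5 and 10 Mb and 10 of 47 between 10 and 15 Mb. On the higher side they were 9 of 56, 9 of 47 and 0 of 22. With both sides together the shares were 12.6%, 16.9% and 14.5%, so among bins of this width the share was not highest within 5 Mb. The share with the same sign in both conditions was 63.1% within 5 Mb, 51.9% between 5 and 10 Mb and 43.5% between 10 and 15 Mb. Among the 41 members within the first Mb, a bin chosen after the values were seen, 31 had the same sign (75.6%). An unadjusted p under 0.05 was found for 9 of them (22.0%). In the other bins of 1 Mb, of 3 to 33 members each, that share ran from 0% to 33.3%. The called members lie 1.07 Mb above and 0.60 Mb below Actl6b. The typical size of a difference was small: the median absolute log2 difference was 0.03 among members and 0.03 among all genes. The 90th percentile was 0.11 and 0.08. By bin of 5 Mb on each side that median ran from 0.02 to 0.03, and within the first Mb it was 0.04.

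**Figure D3:**
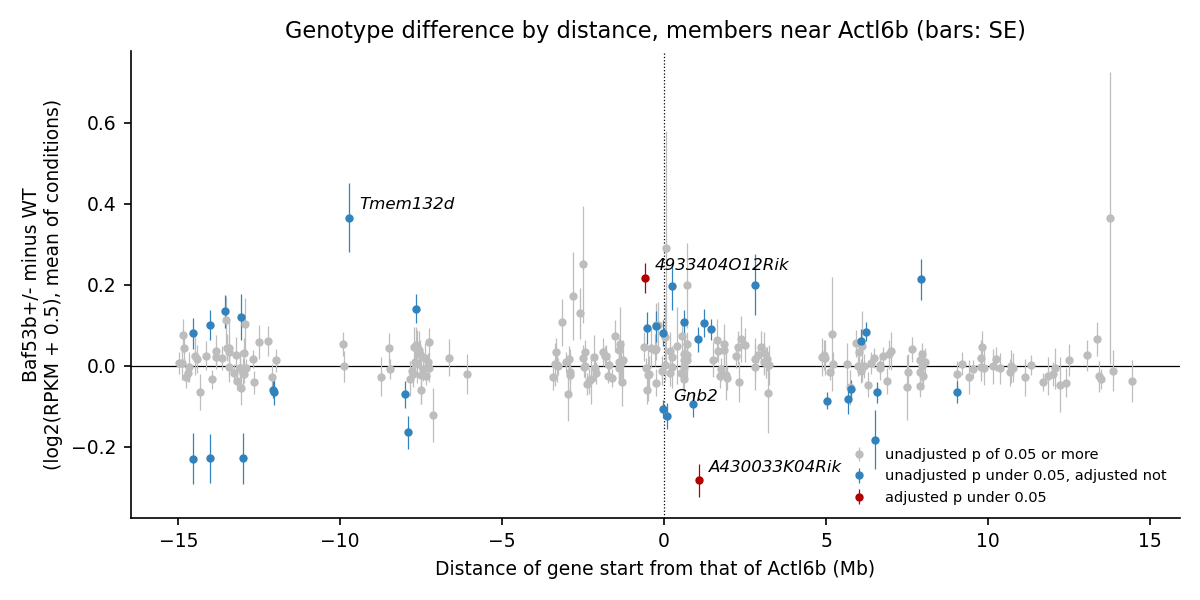
Average genotype difference (log2(RPKM + 0.5), bars are SE) of the members against the distance of their start from that of Actl6b in Mb, negative at lower coordinates. The 2 called members lie close to Actl6b. Among the members plotted, Tmem132d, with a larger difference that did not pass, lies 9.73 Mb below Actl6b. The 1 member whose values are not reported here is not plotted.

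Diablo, which encodes a mitochondrial protein that blocks inhibitors of cell death, lies 14.03 Mb below Actl6b. It was at 11.1, 12.5 and 13.8 RPKM in home cage wild type and at 8.88, 10.4 and 13.2 RPKM in home cage Baf53b+/-. Trained wild-type animals had 10.7, 13.4 and 15.9 RPKM, and trained Baf53b+/- animals 10.4, 10.6 and 12.9 RPKM. Heterozygotes were lower at the median in both conditions, and the groups overlapped. The highest heterozygotes were 2401 and 2415 of the home cage (13.2 and 12.2 RPKM) and 2409 of the trained mice (12.9 RPKM), and the lowest trained wild-type animal was 2407 (10.7 RPKM). The average log2 difference was -0.23 (SE 0.06, limma adjusted p = 0.558). For Tmed2, a cargo receptor of early secretory vesicles 13.00 Mb below Actl6b, it was -0.23 (SE 0.06, limma adjusted p = 0.739). The highest heterozygotes for Tmed2 were again home cage 2401 and 2415 (3.37 and 3.84 RPKM) and trained 2409 (3.21 RPKM). Its lowest trained wild-type animal was again 2407 (2.44 RPKM). With any 1 library left out the average log2 difference ran from -0.26 to -0.20 for Diablo and for Tmed2 and was not called.

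By role, no list of members held a gene called for genotype in either condition, and in the average both called members stood outside the 7 lists. Of 18 measured members of the Williams region, which code among others for the transcription factors Gtf2i and Gtf2ird1, 0 were called and 10 had a positive average difference. Gtf2ird1 had 0.21 in the home cage and 0.01 after training (average 0.11, limma adjusted p = 0.999). Wbscr27 had 0.22 and 0.04 (average 0.13, limma adjusted p = 0.999). Among 22 neuronal and synaptic members 0 were called, and 3 had an unadjusted p under 0.05 in the average, beside 14.4% of all members and 4.49% of all genes, namely Gnb2, Tmem132d and Hip1r. Vgf, a secreted neuropeptide precursor, had an average log2 difference of -0.02. Of 33 transcription and chromatin members, 1 had an unadjusted p under 0.05, Zfp68 at 0.07. Zfp157, a zinc finger gene outside that list, had -0.10 (limma unadjusted p = 0.00586, adjusted p = 0.973). Mitochondria and metabolism had 18 members, 4 of them at an unadjusted p under 0.05, with Sumf2 and Diablo first by p. Protein folding and turnover had 14, with 0 called and 3 at an unadjusted p under 0.05. The list of DNA replication, repair and mitosis had 7, with Nudt1 (0.20, limma adjusted p = 0.999) first and the 1 at an unadjusted p under 0.05. Membrane traffic had 17, with 5 at an unadjusted p under 0.05, and Agfg2 and Ap4m1 first. In the Williams region 0 members had an unadjusted p under 0.05 in the average. The median average difference was between -0.01 and 0.02 in every list, against 0.01 for all members and 0.00 for all genes.

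None of the 5 most abundant members was called for genotype. Actb, cytoplasmic beta-actin, was at 591, 620 and 647 RPKM in home cage wild type and at 533, 591 and 621 RPKM in home cage Baf53b+/-. After training it was at 549, 580 and 665 RPKM in wild type and at 531, 554 and 648 RPKM in Baf53b+/-. Groups overlapped in both conditions, and the average log2 difference of -0.08 did not pass (limma adjusted p = 0.999). Actb has many processed pseudogene copies, so its count of reads is uncertain where those are shared. Ywhag, the 14-3-3 gamma adaptor, had -0.03, Prkar1b, a regulatory subunit of protein kinase A, 0.01, and Mdh2, the mitochondrial malate dehydrogenase, -0.02. Eif4h, which aids translation initiation, had -0.02. Kl, whose product klotho is made in choroid plexus, lies 13.76 Mb above and was between 17.6 and 43.1 RPKM in the 6 choroid-rich libraries and between 4.44 and 9.54 RPKM in the others. Its average log2 difference of 0.37 had an SE of 0.36.

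More members were called for training than for genotype. Averaged over genotypes, 13 members passed, 11 higher and 2 lower after training, which is 5.06% against a background of 4.17% (3.26% higher and 0.911% lower). Within wild type 2 passed, Mepce and Mphosph9 (background 1.08%, 0.960% higher), and within Baf53b+/- 2 passed, Mepce and Slc15a4 (background 1.03%, 0.887% higher). These shares are near those of all genes. Trained and home cage animals did not overlap for 3 members in wild type (Mphosph9, Rabgef1 and Zfp655), against 1.24% of all genes, and for 2 in Baf53b+/- (Mepce and Cpsf4), against 1.33%. At an unadjusted p under 0.05 the average held 57 members, 22.2%, against 16.8% of all genes. Without the 6 choroid-rich libraries 8 members passed in the average, 7 of them among the 13, and 0 passed within either genotype. Those of the 13 that were lost were Gpr12, Katnal1, N4bp2l1, Setd8, Smurf1 and Tmem120a. Within wild type the count fell to 0 without home cage animal 2404 and to 1 without 2402, 2418, 2425 or 2430 of the home cage, or 2403, 2407, 2421 or 2436 of the trained mice. Within Baf53b+/- it fell to 0 without 2401, 2415, 2417 or 2424 of the home cage, or 2416, 2429 or 2435 of the trained mice, and to 1 without trained heterozygote 2409, 2410 or 2414 or trained wild-type 2412.

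Mepce, which caps the 7SK RNA that restrains transcription elongation, lies 228.4 kb above Actl6b. In wild type it was at 11.7, 12.2 and 13.4 RPKM in the home cage and at 12.9, 13.5 and 14.1 RPKM after training. In Baf53b+/- it was at 11.9, 12.5 and 13.1 RPKM in the home cage and at 13.3, 13.8 and 13.9 RPKM after training. Trained animals were higher in both genotypes, with overlap in wild type through 1 home cage animal and none in heterozygotes. The rise was 9.80% in wild type and 9.69% in Baf53b+/-, a log2 difference of 0.13 in each (average SE 0.02, limma adjusted p = 0.000631). Two-sided exact permutation gave p = 0.00866 and 0.00216.

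Zscan21, a zinc finger transcription factor gene 563.4 kb above Actl6b, rose by 16.7% in wild type and 17.0% in Baf53b+/-. In wild type it was at 5.03, 5.43 and 6.77 RPKM in the home cage and at 6.12, 6.47 and 7.09 RPKM after training. Baf53b+/- animals had 5.37, 5.68 and 6.69 RPKM in the home cage and 6.40, 6.93 and 7.43 RPKM after training. In each genotype 1 or 2 home cage animals reached into the trained range. The average log2 rise was 0.21 (SE 0.04, limma adjusted p = 0.00408). Mphosph9, a gene of the centriole and cilium 13.29 Mb below Actl6b, was at 2.37, 2.51 and 2.57 RPKM in home cage wild type and at 2.73, 2.81 and 2.92 RPKM in trained wild type, with no overlap. Baf53b+/- animals had 2.44 to 2.59 RPKM in the home cage and 2.58 to 2.85 RPKM after training. The log2 rise of Mphosph9 was 0.15 in wild type (limma adjusted p = 0.0174) and 0.07 in Baf53b+/- (limma adjusted p = 0.421). Two-sided exact permutation gave p = 0.00216 in wild type and 0.00433 in Baf53b+/-. The average rise was 0.11 (limma adjusted p = 0.00474), and the interaction was -0.08 (limma adjusted p = 0.985). No interaction of genotype and training passed among the members: limma gave 0 calls, with 3 at an unadjusted p under 0.05 (1.17%, against 2.49% of all genes and 0% called).

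**Figure D4:**
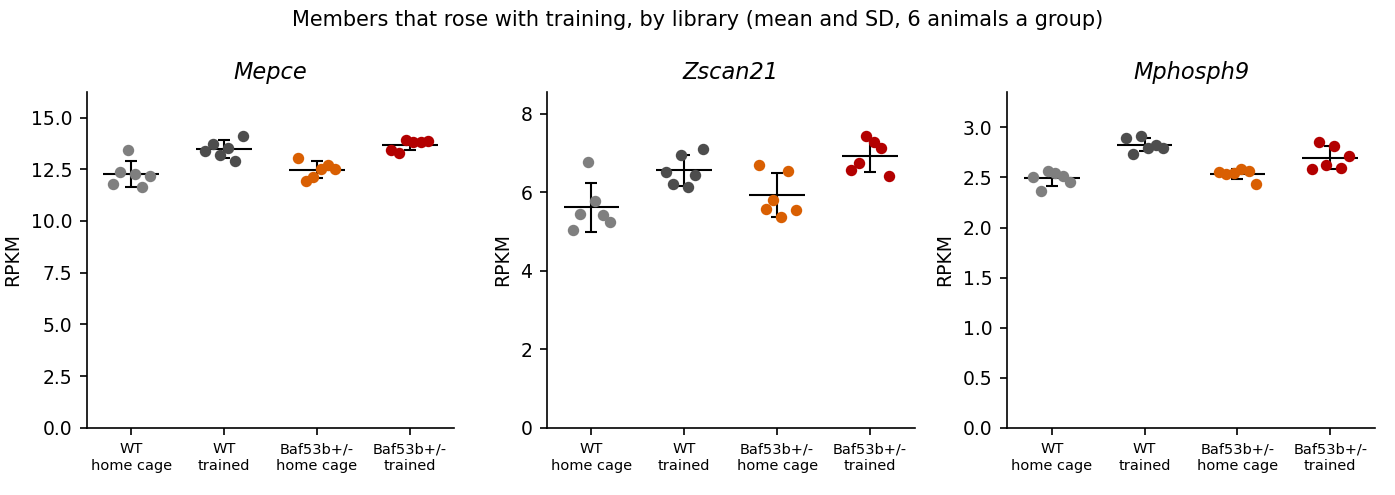
RPKM of Mepce, Zscan21 and Mphosph9 in each of the 24 libraries, home cage beside trained within each genotype, with the mean and SD of 6 animals. Mepce rose by 9.80% in wild type and by 9.69% in Baf53b+/- after training.

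Of the 33 members on the transcription and chromatin list 5 rose in the average over genotypes and 0 fell. Among all 257 members 11 rose, and among all genes 3.26%. The median log2 difference was 0.04 in the list, against 0.01 for all members and 0.00 for all genes. The list was chosen with earlier results of these data known and leaves out Zfp11, Zfp12, Zfp157, Zfp316 and Zfp498. None of these zinc finger genes was called for training, with average log2 differences from -0.05 to 0.01. The 5 that rose were Mepce, Zscan21, Zfp655, Zfp68 and Setd8, the methyltransferase of histone H4 lysine 20. Setd8 was not called without the 6 choroid-rich libraries. Zfp655 and Zfp68, both zinc finger genes, rose by 0.13 and 0.12 (limma adjusted p = 0.0102 and 0.0258). Of the neuronal and synaptic members Gpr12, an orphan receptor coupled to cyclic AMP, fell by 0.16 (limma adjusted p = 0.0249). Vgf had 0.22 and just missed the threshold (limma adjusted p = 0.0527). Smurf1, a ubiquitin ligase, rose by 0.14 (limma adjusted p = 0.00792) and was the 1 call among 14 members of protein folding and turnover. No member of the Williams region, of mitochondria and metabolism, of DNA replication or of membrane traffic was called for training. The other calls in the average, named after their values were seen, were Slc15a4, a lysosomal peptide and histidine transporter, Cpsf4, Katnal1 and Tmem120a, which rose, and N4bp2l1, which fell. RefSeq gave promoters for 11 of these 13 genes. TGACGTCA, the full cyclic AMP response element, was in 0 of the 11 and in 1.77% of all 27025 genes searched, in the same 250 bases and on both strands. With a motif that rare, 11 genes are too few to show whether it is scarcer among them.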

How the data were processed

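Single-end reads of 50 cycles came from TruSeq RNA v2 libraries, a kit that does not keep strand, on a HiSeq instrument, per the labels' protocols. The submitters' processing notes name CASAVA 1.8.2, Bowtie 0.12.8 and the build mm9. The authors deposited RPKM values for 19661 genes with 1 column per animal. Not given in the sources used here were their annotation, the read total and the treatment of reads that match several places. Pools were not mapped to animals, so no batch was fitted. Of the 257 members, 12 have a span from start to end that overlaps that of another listed gene. Whether their exons overlap was not examined, and reads from any shared exon cannot be told apart.

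The log2 of the deposited RPKM plus 0.5 was tested for 12399 genes with limma 3.58.1 in R 4.3.3 (trend and robust settings, 4 groups in 1 model, Benjamini-Hochberg adjustment, 7 comparisons). Each p-value sets a difference between groups against the spread between animals. Depth came from RPKM steps in 925 single-exon genes, where at the chosen total 43.8% to 53.5% of entries came out whole (tolerance 0.05 reads), against a median of at most 8.3% over other totals. Read counts were not used here, so no interval on counts is given.

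The members and lists were chosen with earlier results of these data known. Named are members called for genotype, the next 5 by p, the nearest 3 on each side, the 5 most abundant, 3 called for training, 3 on each side of the level limit, in each role list up to 4 that passed or else 2 by p, and Actl6b. The values of 1 member are not reported here, though the counts include it. Promoters are from RefSeq GRCm38.p6, and no coordinate was converted between builds. Libraries were called choroid-rich where the mean log2 of the choroid plexus markers was over 1 above the median. Astrocyte, oligodendrocyte, microglia, and endothelial and mural marker lists gave 0 genotype calls each.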

Additional observations from a re-analysis of the deposited data

Results flagged for a closer look

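A sample was marked where its gap to the nearest other of its 6 animals exceeded, as a share of the group's whole range, Dixon's critical value for 6 samples. Of 104 checks (26 genes in 4 groups) 12 met this, where chance flags about 1 in 20 groups. No reason for any of them was tested.

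Trained heterozygote 2409 was high for Diablo at 12.9 RPKM and low for Vps33a, a subunit of the tethering complexes of late endosomes, at 26.2 RPKM. Home cage heterozygotes 2401 and 2415, not marked, were also high for Diablo (13.2 and 12.2 RPKM) and the lowest of their group for Vps33a (28.1 and 28.3 RPKM), and trained wild-type animal 2407 was low for Diablo (10.7 RPKM) and high for Vps33a (32.2 RPKM).

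Heterozygote 2415 of the home cage was highest of its group for Trfr2 at 2.07 RPKM, Ywhag at 429 RPKM and Prkar1b at 244 RPKM. Trained heterozygote 2414 was lowest for Trfr2 at 0.738 RPKM and highest for Actb at 648 RPKM. Home cage wild-type animal 2425, a choroid-rich library, was highest for Kl at 21.6 RPKM and for Pcolce at 6.68 RPKM. Home cage wild-type animal 2430 was highest for Pop7 at 12.2 RPKM, trained wild-type animal 2407 for Mospd3 at 11.2 RPKM, and trained wild-type animal 2421 for Ywhag at 417 RPKM.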

How the results depend on the processing

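No paired analysis was possible because each animal has its own number and the groups share none. Members called for genotype were 1 in place of 0 in trained animals with a pseudocount of 1, with libraries shifted to a common median, and with limma without trend and robust settings. In each case this was A430033K04Rik (limma adjusted p = 0.0475, 0.0392 and 0.0453). Without the choroid-rich libraries the average held 1 call in place of 2, Tmem132d, and neither of the 2 was kept, whereas both were kept when the choroid plexus score entered the model. Leaving out the choroid-rich libraries also left 0 training calls in wild type and 0 in Baf53b+/-, and 8 in place of 13 in the average. With a common median, training in wild type had 0 calls and in Baf53b+/- 1, which also had 1 once the choroid plexus score was a covariate. With 1 library left out, calls ran from 0 to 0 in the home cage, 0 to 1 in trained animals, 1 to 2 in the average, 0 to 0 for the interaction, 0 to 3 for training in wild type, 0 to 3 in Baf53b+/- and 9 to 15 in the average. Members at an unadjusted p under 0.05 with 1 sign in both conditions, 13, were 8 to 15 with 1 library left out and 6 without the choroid-rich libraries, while those in the average, 37, were 32 to 47 and 25. These last counts were added after the data were seen. Sex as a covariate gave 12 and 31, and the choroid plexus score 14 and 33. Of the named genes, A430033K04Rik, 4933404O12Rik, Gnb2, Tmem132d, Cpsf4, Mmd2, Sumf2, Diablo and Tmed2 (genotype) and Mepce, Zscan21 and Mphosph9 (training) were refitted under these settings, and their differences kept their sign. With 6 animals a group, a difference that missed the threshold is not shown to be absent.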
